A study of Homo sapiens with 6 samples.

Results

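Genes of the NRF2 pathway and antioxidant enzymes were examined after lentiviral delivery of SNORA28, an H/ACA box small nucleolar RNA, into HCT116, a long-established line of human colorectal carcinoma cells. The list held 43 genes, chosen by name for their function with earlier results of these data known. Of these, 42 were matched to an identifier among the 60612 genes measured. SOD2 was not matched and is not analysed here. Of the 42 genes, 37 had a mean of at least 1 FPKM (mapped fragments per unit of transcript length, relative to all mapped fragments of that library) over the 6 libraries and were tested together with all other genes above that level, 12076 in all. The other 5, GPX2, AKR1B10, AKR1C1, AKR1C2 and AKR1C3, lay below that level. Each tested member was above 1 FPKM in every library, the lowest value being 1.54 FPKM for TXNRD2 in LV-NC 1, so none passed the filter through a single group. SRXN1 was already known to be higher in the LV-SNORA28 libraries, and the question was whether that rise was shared by the rest of the list.

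Poly(A) RNA was sequenced from 3 libraries of cells infected with the negative control lentivirus (LV-NC) and 3 libraries of cells infected with the lentivirus that overexpresses SNORA28 (LV-SNORA28). Per the study's methods, both viruses were infected with the reagent HiTransG P and the SNORA28 insert was carried in the GV235 vector. Both groups therefore carried a virus, and no uninfected cells were compared. The promoter that drove the insert was not given in the sources used here. Nothing in the labels says that the libraries of a group came from separate infections or cultures, so p-values measure only the spread between these libraries, which may be technical.

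NRF2, encoded by NFE2L2, is a transcription factor that is held at a low level by KEAP1, the adaptor that delivers it for degradation. When KEAP1 is modified by oxidants or electrophiles, NRF2 accumulates, pairs with a small MAF protein and binds antioxidant response elements near genes for thiol reduction, glutathione synthesis, NADPH supply, quinone reduction, iron storage and drug export. In colorectal and other carcinomas this program is known for supporting the removal of peroxides and the export of drugs.

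The element that NRF2 binds has the core TGACNNNGC, and promoters were searched for it because the members share a pathway. RefSeq promoter windows (GRCh38.p14, from 250 bases before to 50 bases after a gene start) were matched for 32 of the 43 members. The other 11 were not searched, and neither was sequence outside these 300 bases. A missing match therefore does not mean that a gene lacks the element. The core occurred on either strand in a window of 7 of the 32 members (21.9%) and of 16.1% of the 27305 genes with a window. Among members that were called higher and had a window, 1 of 5 (20%) held it, and among members that were tested and not called, 5 of 22 (22.7%) did. The 11 matches lay in windows of ME1, GCLM, GSTP1, TXNRD1, PGD, KEAP1 and GPX2, and 2 of them, in ME1 and GSTP1, overlapped the AP-1 site TGANTCA. ME1 is shown as the only called member with a match, GCLM and GSTP1 as members without a call, and KEAP1 because its product holds NRF2 in check. Capitals mark the core, each sequence is printed 5′ to 3′ on the strand that holds it, and a match describes letters only.
ME1 (chr6:83431170-83431198, minus strand): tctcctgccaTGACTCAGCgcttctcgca
GCLM (chr1:93909446-93909474, plus strand): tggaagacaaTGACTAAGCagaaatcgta
GSTP1 (chr11:67583736-67583764, plus strand): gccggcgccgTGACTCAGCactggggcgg
KEAP1 (chr19:10502784-10502812, plus strand): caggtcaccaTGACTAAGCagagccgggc

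SNORA28 itself was between 0 and 0.92 FPKM in LV-NC and between 13.7 and 15.2 FPKM in LV-SNORA28, in the direction of the labels. The libraries were made from poly(A) RNA, so these values need not give the level of the mature small RNA. Of 7 epithelial markers, 6 were above 1 FPKM in every library and VIL1 was not. The summed level of the epithelial markers was 762 to 850 FPKM in LV-NC and 784 to 830 FPKM in LV-SNORA28. Of the immune markers, CD68 was at 0.95 to 2.07 FPKM in LV-NC and 2.27 to 4.12 FPKM in LV-SNORA28, with PTPRC and CD3E at or below 0.08 FPKM, and the part of this difference in the results was not tested. The fibroblast markers COL1A2 and DCN were listed at 0, COL1A1 gave a sum of 3.16 to 4.46 FPKM in LV-NC and 3.16 to 4.04 FPKM in LV-SNORA28, and the endothelial markers PECAM1 and VWF summed to at most 0.11 FPKM. The mitochondrially encoded share of the FPKM sum moved with the groups, from 44.4% ± 2.83 (SD, n = 3) in LV-NC to 37.3% ± 1.25 (SD, n = 3) in LV-SNORA28. FPKM is relative to all mapped fragments, so results on the sum of the nuclear genes are given beside the first count. In bulk RNA, fewer cells of a kind and less RNA per cell cannot be told apart. Read depth was not given with the values and is unknown here.

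Genes of the list were more often higher than lower in LV-SNORA28, and SRXN1 changed the most. At an adjusted p below 0.05 (limma, Benjamini-Hochberg over all genes tested), 6 of the 37 tested members were higher (16.2%) and 0 were lower. They were SRXN1, OSGIN1, PRDX1, TALDO1, ME1 and TXN. SRXN1 was already known to be higher, so its part in this and the following counts over members adds no new evidence. The list as a whole was also chosen with earlier results of these data known, so these counts describe the list and do not test it. Over all 12076 genes, 8.91% passed the same test, 6.81% higher and 2.10% lower. At an unadjusted p below 0.05, 20 of the 37 members passed (17 higher and 3 lower), against 28.0% of all genes. Of all calls, 76.4% were higher under the values as deposited and 54.6% under quantile normalization, where 6.84% of all genes were called (451 higher and 375 lower) and 5 members were higher and 2, ABCC3 and PGD, lower. With values rescaled to the sum of the nuclear genes, the same 6 members were called, against 7.28% of all genes. Calls other than SRXN1 depended on the setting, since 4 members were called without any single LV-NC library and 2, SRXN1 and OSGIN1, without any single LV-SNORA28 library.

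The log2 fold change, taken throughout as LV-SNORA28 minus LV-NC on log2(FPKM + 1), was above 0 in 29 of the 37 members and below 0 in 8, while 66.7% of all genes were above 0. Its median was 0.21 over the members and 0.085 over all genes tested, and 0.18 and 0.064 on the nuclear sum. The 3 LV-SNORA28 values lay above the 3 LV-NC values in 18 of the 37 members (48.6%), against 27.0% of all genes. They lay below in 4 members (10.8%), PGD, TKT, HMOX1 and ABCC3, against 8.16% of all genes, and 35.1% of all genes had no overlap in either direction. The 42 measured members took 2.12% to 2.48% of the nuclear FPKM sum in LV-NC and 2.51% to 2.66% in LV-SNORA28. These shares did not overlap, by a narrow margin, and they rest largely on a few abundant genes. FTL alone, which was not called, gave 1528 to 1777 of 4048 to 4857 FPKM in LV-NC. In LV-SNORA28 it gave 1954 to 2044 of 4927 to 5313 FPKM. The study's own threshold asks for an unadjusted p below 0.05 and more than a 1.5-fold difference. It was passed by 1 member, SRXN1, which was higher, against 3.79% of all genes (2.58% higher and 1.22% lower). That fold was read on log2(FPKM + 1), and the plain ratio of means was also above 1.5 for OSGIN1 (1.54) and GPX1 (1.57).

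**Figure D1:**
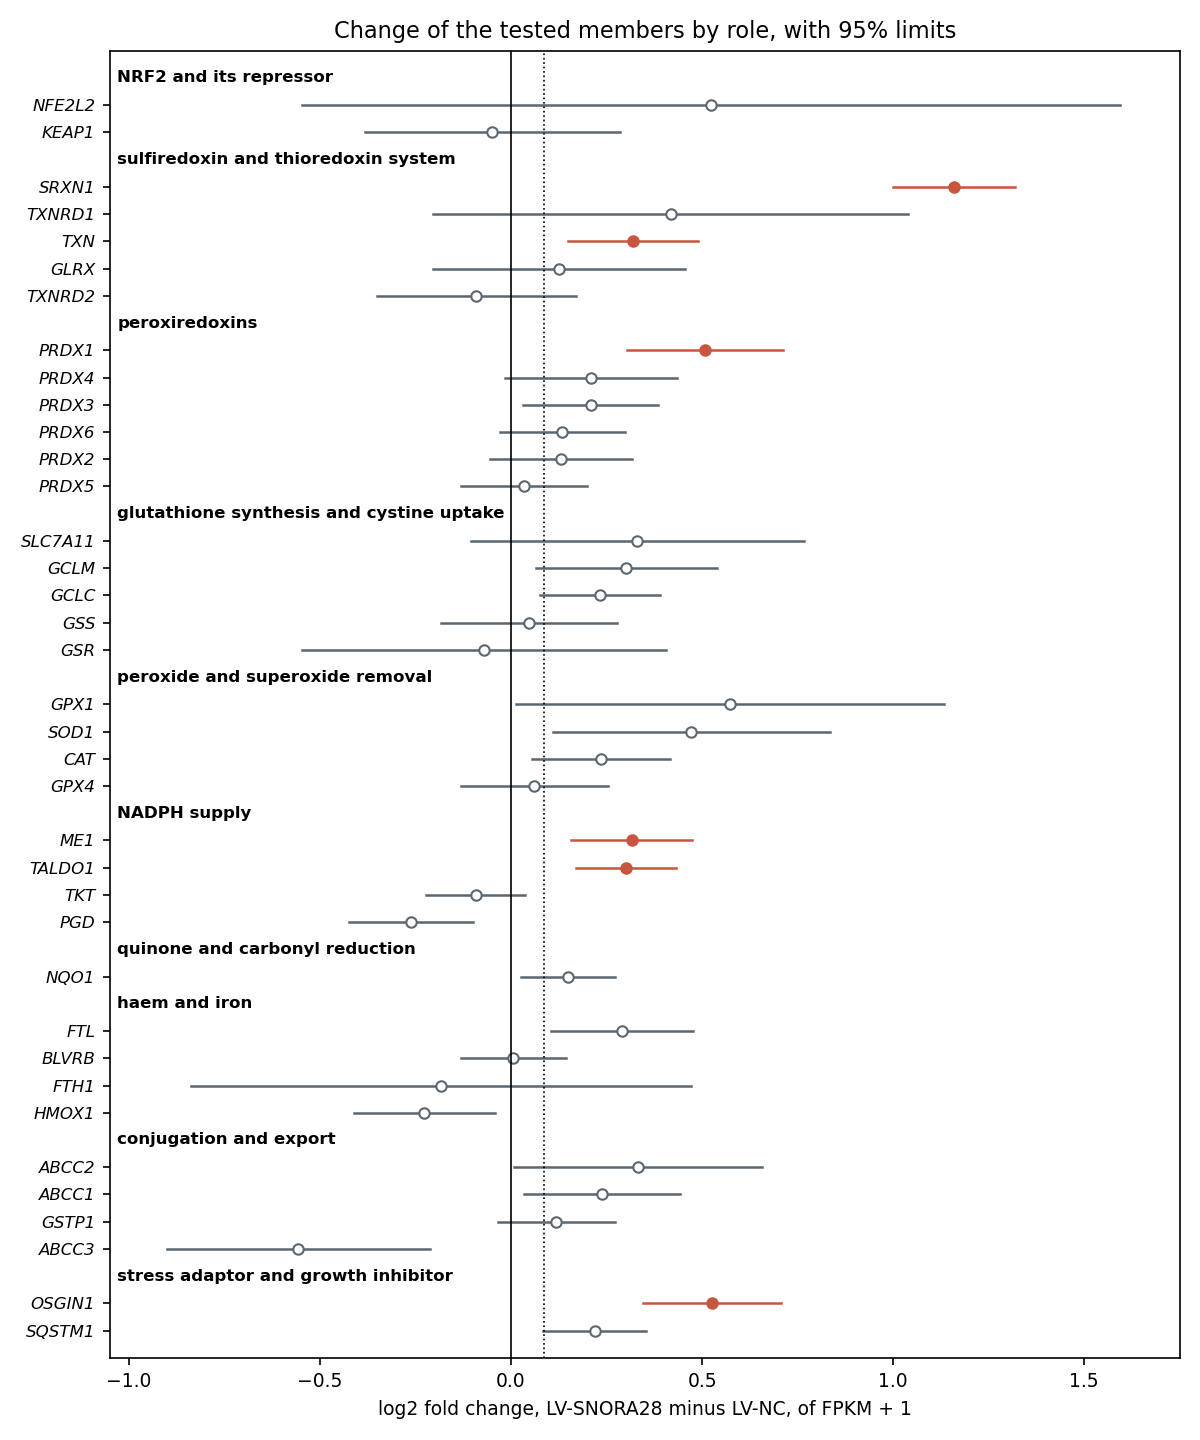
Log2 fold change of FPKM + 1 (LV-SNORA28 minus LV-NC, horizontal axis) for the 37 tested members, grouped by role, with points for the estimate and bars for 95% limits from limma. Filled points mark the 6 members with an adjusted p below 0.05, the dotted line marks the median of all genes tested (0.085), and SRXN1 lies farthest to the right at 1.16.

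Sulfiredoxin and the thioredoxin system reduce oxidized thiols in proteins, and this group held the largest rise. SRXN1 (ENSG00000271303; GRCh38 chromosome 20, 646615 to 653200, minus strand) encodes sulfiredoxin, which repairs peroxiredoxins whose catalytic cysteine has been overoxidized. Its level was 25.4, 26.8 and 28.9 FPKM in LV-NC 1, 2 and 3 and 59.8, 61.5 and 63.4 FPKM in LV-SNORA28 1, 2 and 3. The groups were far apart, and the spread within each was small beside the gap. The mean rose from 27.0 ± 1.78 FPKM to 61.6 ± 1.81 FPKM (SD, n = 3 each), a ratio of 2.28. The log2 fold change was 1.16 (SE 0.066, 95% limits 1.00 to 1.32, limma adjusted p = 0.00123), and 43 of the 12076 genes tested, SRXN1 included, had a value at least as high. Since SRXN1 was singled out for this rise, its test is a description.

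None of the other 36 tested members had a log2 fold change above 1. In 33 of them the upper 95% limit lay below the lower 95% limit of SRXN1, the exceptions being NFE2L2, TXNRD1 and GPX1, each with a library far from the others of its group. In 17 of the 36 the 95% interval included 0. Differences between SRXN1 and single members were not tested beyond these limits. A second gene, ENSG00000270299, overlaps SRXN1 on the same strand and was near 0, with a mean of 0.015 FPKM.

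TXN (ENSG00000136810; chromosome 9, 110243810 to 110256507, minus strand) encodes thioredoxin, the small protein that passes electrons from NADPH to peroxiredoxins and other targets. It was at 146, 168 and 163 FPKM in LV-NC against 202, 202 and 192 FPKM in LV-SNORA28. All LV-SNORA28 values were above all LV-NC values. TXN gained 0.32 on the log2 scale (SE 0.071, limma adjusted p = 0.0426), a rise from 159 ± 11.8 to 199 ± 5.73 FPKM (SD, n = 3 each). The call was kept in 4 of 13 alternative fits and lost whenever a library was left out, with adjusted p values up to 0.136. Its pseudogene TXNP4 also passed the test (log2 fold change 0.48, limma adjusted p = 0.0430) at 0.66 to 1.03 FPKM in LV-NC and 1.43 to 1.73 FPKM in LV-SNORA28. Whether reads of TXN were assigned to this far lower copy was not tested.

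TXNRD1, the cytosolic reductase that recharges thioredoxin, was at 34.5, 31.2 and 62.7 FPKM in LV-NC against 51.2, 50.2 and 63.9 FPKM in LV-SNORA28. LV-NC 3 stood with the LV-SNORA28 libraries, and the groups overlapped. The log2 fold change was 0.42 (SE 0.26, limma adjusted p = 0.344), and with a library left out it ran from 0.23 without LV-NC 2 (adjusted p 0.629) to 0.72 without LV-NC 3 (adjusted p 0.0468). An abundant ribosomal pseudogene, RPL18AP3, lies within TXNRD1 on the same strand at a mean of 138 FPKM, and whether reads were shared between them was not tested. TXNRD2, the mitochondrial reductase, was lower in level, at 1.54 to 2.27 FPKM in LV-NC and 1.71 to 1.77 FPKM in LV-SNORA28. GLRX, a glutaredoxin that uses glutathione to reduce mixed disulfides, was at 2.62 to 2.99 FPKM in LV-NC and 2.61 to 4.06 FPKM in LV-SNORA28. Neither passed the test. For GLRX the log2 fold change of 0.12 was -0.024 without LV-SNORA28 1, the library with the highest value. RHOBTB3 spans GLRX on the opposite strand at a mean of 28.4 FPKM, and whether reads were shared between them was not tested. Summed over the 5 genes of this group, the level was 210 to 260 FPKM in LV-NC and 318 to 324 FPKM in LV-SNORA28. That sum includes SRXN1, whose rise was already known, and TXN is its largest part. In TXNRD1, TXNRD2 and GLRX the groups overlapped, so the sum does not show a rise of the whole group.

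**Figure D2:**
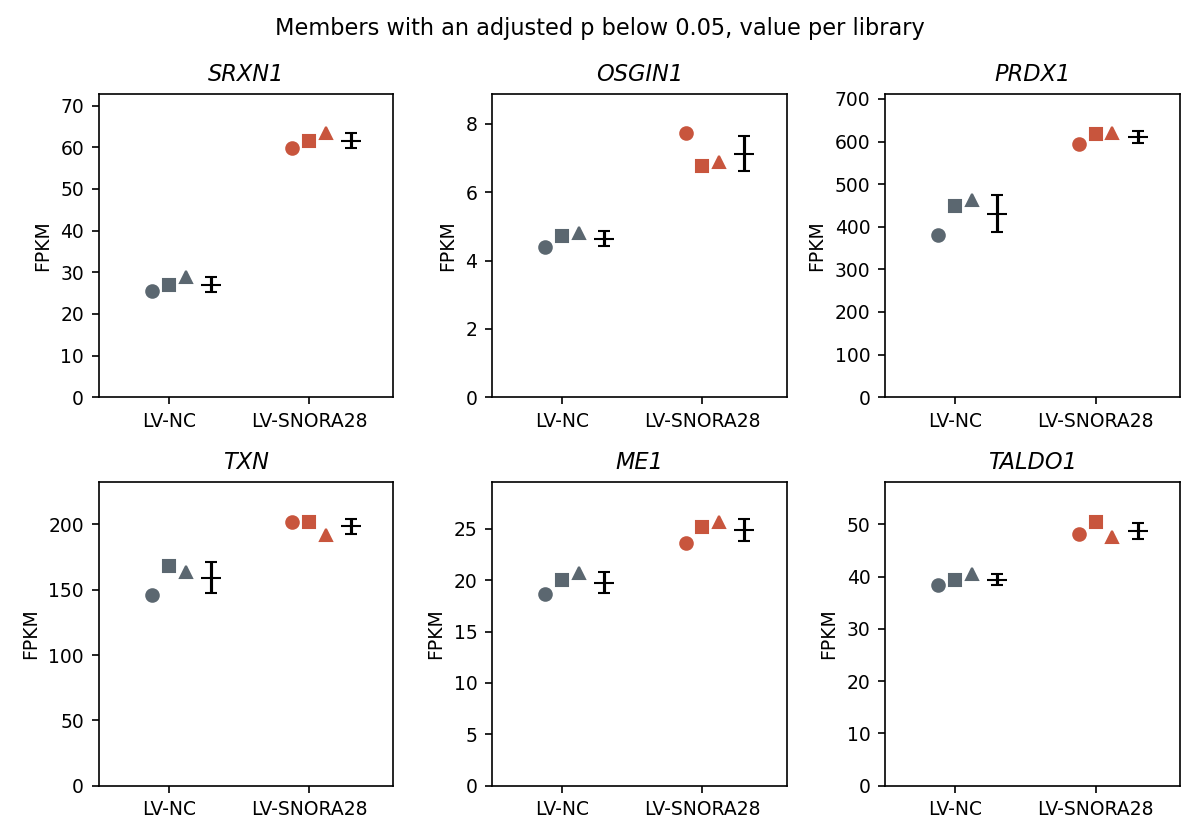
FPKM (vertical axes, starting at 0) of the 6 members with an adjusted p below 0.05 in each library, with circles, squares and triangles for replicates 1, 2 and 3 and black bars for the mean ± SD of the group (n = 3). In each panel the 3 LV-SNORA28 points lie above the 3 LV-NC points, and the ratio of means is largest for SRXN1 (2.28, from 27.0 to 61.6 FPKM).

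The peroxiredoxins are thiol peroxidases that remove hydrogen peroxide, and the typical 2-cysteine forms are the substrates of sulfiredoxin. Of the 6 genes, 1 rose, 0 fell and 5 did not pass the test, against 6.81% of all genes higher and 2.10% lower. PRDX1 (ENSG00000117450; chromosome 1, 45510914 to 45542732, minus strand), the most abundant of them, was at 381, 448 and 463 FPKM in LV-NC against 595, 617 and 620 FPKM in LV-SNORA28. The lowest value was that of LV-NC 1, and the groups did not overlap. PRDX1 rose from 431 ± 43.4 to 611 ± 13.8 FPKM (SD, n = 3 each), with a log2 fold change of 0.51 (SE 0.085, limma adjusted p = 0.0203). The call was lost when LV-SNORA28 1, 2 or 3 was left out (adjusted p 0.0565, 0.0789 and 0.0797).

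PRDX3, the mitochondrial form, was at 71.8 to 84.3 FPKM in LV-NC and 86.3 to 92.3 FPKM in LV-SNORA28, with no overlap and no call (log2 fold change 0.21, limma adjusted p = 0.127). PRDX4, the form of the endoplasmic reticulum, had the same log2 fold change of 0.21 with overlapping groups, at 24.0 to 30.0 FPKM in LV-NC and 28.8 to 31.8 FPKM in LV-SNORA28. PRDX6, which uses a single cysteine, was at 93.0 to 104 FPKM in LV-NC and 104 to 114 FPKM in LV-SNORA28, without overlap by a narrow margin (log2 fold change 0.13, limma adjusted p = 0.254). PRDX2, a cytosolic form, and PRDX5, an atypical form, had log2 fold changes of 0.13 and 0.034 with overlapping groups. All 6 estimates were above 0 under each scaling that was tried, but under quantile normalization those of PRDX2, PRDX3, PRDX4 and PRDX6 were 0.016, 0.13, 0.13 and 0.027, and that of PRDX5 was -0.017 without LV-NC 3. Summed, the 6 peroxiredoxins gave 904 to 998 FPKM in LV-NC and 1160 to 1210 FPKM in LV-SNORA28, with PRDX1 as the largest single part.

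NFE2L2 and KEAP1, the factor and its repressor, did not pass the test. NFE2L2 was at 6.49, 22.5 and 24.1 FPKM in LV-NC against 21.9, 24.8 and 21.1 FPKM in LV-SNORA28. LV-NC 1 stood far below the other 5 libraries, which lay between 21.1 and 24.8 FPKM. The log2 fold change was 0.52 (SE 0.45, 95% limits -0.55 to 1.59, limma adjusted p = 0.493), and without LV-NC 1 it was -0.042 with an adjusted p of 0.791. HNRNPA3 overlaps NFE2L2 on the opposite strand at a mean of 85.9 FPKM, and whether reads were shared between them was not tested. KEAP1 was at 24.4, 19.7 and 20.9 FPKM in LV-NC against 17.5, 25.1 and 20.6 FPKM in LV-SNORA28, and the groups overlapped (log2 fold change -0.049, limma adjusted p = 0.854). NRF2 is controlled mainly through the stability of its protein, which these data do not measure.

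Of the 4 genes grouped under NADPH supply, 2 rose and 2 were lower without passing the test. In each of them the groups did not overlap (against 8.91% of all genes called and 35.1% not overlapping). ME1 and PGD yield NADPH, while TALDO1 and TKT act in the non-oxidative pentose phosphate pathway and do not yield it themselves. ME1 (ENSG00000065833; chromosome 6, 83210402 to 83431051, minus strand), cytosolic malic enzyme, was at 18.63, 19.99 and 20.72 FPKM in LV-NC against 23.7, 25.2 and 25.7 FPKM in LV-SNORA28. The gain was 0.32 on the log2 scale (SE 0.066, limma adjusted p = 0.0367), from 19.8 ± 1.06 to 24.9 ± 1.06 FPKM (SD, n = 3 each). ME1 is also the called member whose promoter sequence with the core is printed above. TALDO1 (ENSG00000177156; chromosome 11, 747415 to 765012, plus strand), transaldolase of the non-oxidative pentose phosphate pathway, was at 38.4, 39.4 and 40.4 FPKM in LV-NC against 48.2, 50.5 and 47.6 FPKM in LV-SNORA28. On the log2 scale the gain was 0.30 (SE 0.055, limma adjusted p = 0.0257), from 39.4 ± 1.02 to 48.8 ± 1.55 FPKM (SD, n = 3 each). Both calls were lost with any single library left out, with adjusted p values up to 0.124 for ME1 and 0.101 for TALDO1.

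PGD, the dehydrogenase that yields NADPH in the oxidative branch, was at 58.4, 58.2 and 66.2 FPKM in LV-NC against 51.2, 50.9 and 49.6 FPKM in LV-SNORA28. It was lower in all LV-SNORA28 libraries, with a log2 fold change of -0.26 (limma adjusted p = 0.0615), and it passed at a mean of at least 5 FPKM (0.0492) and under quantile normalization (0.0391). TKT, transketolase, was at 58.7 to 61.5 FPKM in LV-NC and 55.1 to 58.4 FPKM in LV-SNORA28 (log2 fold change -0.093, limma adjusted p = 0.312). With 2 estimates above 0 and 2 below, the summed level of the 4 enzymes overlapped between groups, at 176 to 189 FPKM in LV-NC and 178 to 183 FPKM in LV-SNORA28.

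Glutathione synthesis and cystine uptake held 5 genes, none of which passed the test. GCLC and GCLM encode the catalytic and modifier subunits of glutamate-cysteine ligase, which sets the rate of glutathione synthesis. GCLC was at 8.70, 8.65 and 8.25 FPKM in LV-NC against 10.1, 9.72 and 10.8 FPKM in LV-SNORA28, and GCLM at 4.29, 4.49 and 5.20 FPKM and at 5.30, 6.12 and 6.52 FPKM. In both genes the LV-SNORA28 values were higher without overlap, against 27.0% of all genes tested. The log2 fold changes were 0.23 (limma adjusted p = 0.0760, or 0.14 under quantile normalization) and 0.30 (limma adjusted p = 0.108). SLC7A11, the cystine transporter of system xc-, had the largest estimate of the group with all libraries in the fit. It was at 14.6, 9.20 and 13.6 FPKM in LV-NC against 13.9, 14.9 and 18.5 FPKM in LV-SNORA28. LV-NC 1 lay above LV-SNORA28 1, and the log2 fold change was 0.33 (SE 0.18, limma adjusted p = 0.290). Without LV-NC 2 it was 0.14, below the 0.28 of GCLM, and without LV-SNORA28 3 it was 0.22. GSS, glutathione synthetase, had a log2 fold change of 0.048 that was -0.042 under quantile normalization. GSR, which reduces oxidized glutathione, was at 32.7 to 52.4 FPKM in LV-NC and 37.3 to 50.5 FPKM in LV-SNORA28, with overlapping groups. The sum of the 5 genes, 64.8 to 88.8 FPKM in LV-NC and 79.4 to 89.4 FPKM in LV-SNORA28, overlapped too.

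**Figure D3:**
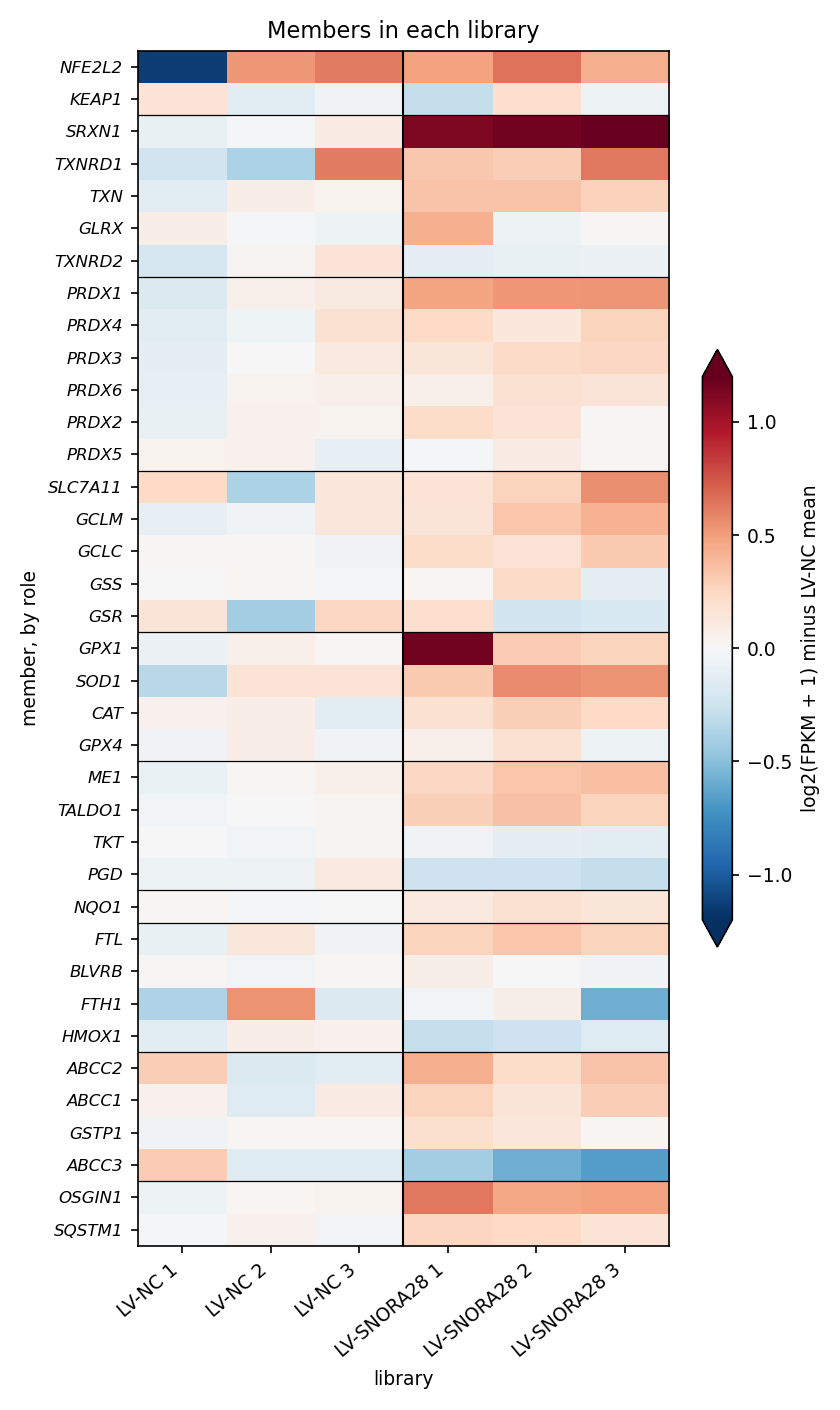
Log2(FPKM + 1) of each of the 37 tested members in each of the 6 libraries minus the LV-NC mean of that gene, as color (red higher, blue lower, with darkest shades for values at or beyond the ends of the scale). Lines separate the roles. SRXN1 is dark red in the 3 LV-SNORA28 libraries, while single fields stand out for NFE2L2 in LV-NC 1 (6.49 FPKM) and GPX1 in LV-SNORA28 1 (66.8 FPKM).

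Among the enzymes that remove peroxides and superoxide, 4 were tested and none passed. GPX1, the cytosolic glutathione peroxidase, was at 28.0, 30.6 and 29.6 FPKM in LV-NC against 66.8, 36.5 and 35.6 FPKM in LV-SNORA28. LV-SNORA28 1 stood far above the other libraries, and the groups did not overlap. The log2 fold change was 0.57 (SE 0.23, limma adjusted p = 0.169), and 0.28 without LV-SNORA28 1. SOD1, the copper-zinc superoxide dismutase, was at 86.6, 123 and 123 FPKM in LV-NC against 136, 162 and 159 FPKM in LV-SNORA28, again without overlap (log2 fold change 0.47, limma adjusted p = 0.104, or 0.31 without LV-NC 1, its lowest library). Its pseudogene SOD1P3 passed the test (log2 fold change 0.56, limma adjusted p = 0.0309) at 1.33 to 1.51 FPKM in LV-NC and 2.21 to 3.13 FPKM in LV-SNORA28. Whether reads of SOD1 were assigned to this far lower copy was not tested. CAT, catalase, was at 13.1 to 15.2 FPKM in LV-NC and 16.4 to 17.8 FPKM in LV-SNORA28 (log2 fold change 0.24, limma adjusted p = 0.101). GPX4, which reduces lipid peroxides, had overlapping groups and a log2 fold change of 0.061, or -0.017 under quantile normalization. GPX2, the gastrointestinal form, was at or below 0.13 FPKM in every library.

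Among the 5 listed genes for the reduction of quinones and carbonyls, nearly all of the RNA level was that of NQO1. It encodes the quinone reductase often used as a readout of NRF2. Further reductases, such as AKR1A1, NQO2, AKR1B1 and PTGR1, were on the other pathway list. NQO1 was at 86.1, 84.2 and 84.4 FPKM in LV-NC against 91.9, 96.8 and 94.0 FPKM in LV-SNORA28. No values overlapped, and the difference was small, with a ratio of means of 1.11 and a log2 fold change of 0.15 (SE 0.051, limma adjusted p = 0.119), or 0.056 under quantile normalization (limma adjusted p = 0.560). The aldo-keto reductases AKR1B10, AKR1C1, AKR1C2 and AKR1C3 were each below 1 FPKM in every library. AKR1B10 was at 0.31, 0.46 and 0.22 FPKM in LV-NC against 0.90, 0.67 and 0.44 FPKM in LV-SNORA28, with overlapping groups. In the fit without a filter its log2 fold change was 0.32 (SE 0.13, limma adjusted p = 0.341). AKR1C2 was at 0.07 to 0.15 FPKM in LV-NC and 0.20 to 0.24 FPKM in LV-SNORA28 and did not pass in that fit either (limma adjusted p = 0.284). The AKR1C genes are close paralogs between which reads may be split, so their single values are uncertain.

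The haem and iron genes had estimates on both sides of 0, and none of the 4 passed the test. HMOX1, haem oxygenase 1, was at 11.7, 13.7 and 13.4 FPKM in LV-NC against 10.5, 10.7 and 11.5 FPKM in LV-SNORA28. It was lower in all LV-SNORA28 libraries (log2 fold change -0.23, limma adjusted p = 0.118). FTL, the ferritin light chain and the most abundant member, was at 1528, 1777 and 1573 FPKM in LV-NC against 1955, 2044 and 1954 FPKM in LV-SNORA28. FTL did not overlap either, on the higher side, with a log2 fold change of 0.29 (SE 0.078, limma adjusted p = 0.0673), or 0.091 under quantile normalization. Without LV-NC 2 its adjusted p was 0.0489.

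FTH1, the ferritin heavy chain, was at 459, 863 and 525 FPKM in LV-NC against 579, 624 and 394 FPKM in LV-SNORA28. LV-NC 2 was the highest and LV-SNORA28 3 the lowest library, and the log2 fold change of -0.18 (limma adjusted p = 0.707) was 0.088 without LV-NC 2. FTH1 has 25 annotated pseudogenes, of which 9 were tested and 4 were lower in LV-SNORA28 (FTH1P3, FTH1P5, FTH1P10 and FTH1P11), against 2.10% of all genes. FTH1P11 was at 13.0, 14.0 and 13.0 FPKM in LV-NC against 6.48, 6.15 and 4.60 FPKM in LV-SNORA28 (log2 fold change -1.10, limma adjusted p = 0.00634). Together the 25 pseudogenes gave 58.7 to 67.4 FPKM in LV-NC and 32.0 to 45.8 FPKM in LV-SNORA28, which is 8.82% of the mean FTH1 level over the 6 libraries. Reads may be split between FTH1 and these near-identical copies, so the FTH1 value is uncertain. BLVRB, biliverdin reductase B, was at 24.0 to 25.0 FPKM in LV-NC and 23.8 to 25.8 FPKM in LV-SNORA28, with a log2 fold change of 0.0064 that was below 0 under quantile normalization (-0.089) and on the nuclear sum (-0.020).

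Conjugation and export held 4 genes and no call. ABCC3, an exporter of organic anions and conjugates, was at 8.61, 6.0 and 6.01 FPKM in LV-NC against 4.82, 4.17 and 3.92 FPKM in LV-SNORA28. It was lower in all LV-SNORA28 libraries and had the largest estimate below 0 on the list, at -0.56 (SE 0.14, 95% limits -0.90 to -0.21, limma adjusted p = 0.0612). Under quantile normalization it passed with a log2 fold change of -0.66 (limma adjusted p = 0.0446). The related exporters went the other way in estimate without passing. ABCC1 was at 13.6 to 16.4 FPKM in LV-NC and 17.1 to 18.9 FPKM in LV-SNORA28 (log2 fold change 0.24, limma adjusted p = 0.131). ABCC2 was at 12.6, 8.86 and 9.18 FPKM in LV-NC against 14.0, 11.9 and 13.1 FPKM in LV-SNORA28 (log2 fold change 0.33, limma adjusted p = 0.169, or 0.0436 without LV-NC 1). GSTP1, the pi-class glutathione transferase, did not overlap by a narrow margin, at 221 to 231 FPKM in LV-NC and 232 to 260 FPKM in LV-SNORA28 (log2 fold change 0.12, limma adjusted p = 0.279).

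The stress adaptor SQSTM1 and the growth inhibitor OSGIN1 were both higher in all LV-SNORA28 libraries, and OSGIN1 passed the test. Of all genes tested, 27.0% were higher without overlap and 6.81% passed as higher. OSGIN1 (ENSG00000140961; chromosome 16, 83931311 to 83966332, plus strand), an oxidative stress-induced growth inhibitor, was at 4.40, 4.72 and 4.80 FPKM in LV-NC against 7.73, 6.77 and 6.89 FPKM in LV-SNORA28. Its mean rose from 4.64 ± 0.212 to 7.13 ± 0.523 FPKM (SD, n = 3 each), with a log2 fold change of 0.53 (SE 0.075, limma adjusted p = 0.0129). OSGIN1 was called in 12 of 13 alternative fits, and SRXN1 in 13 of 13. SQSTM1, the autophagy adaptor p62 that also sequesters KEAP1, was at 60.7, 63.7 and 59.9 FPKM in LV-NC against 73.5, 72.4 and 68.9 FPKM in LV-SNORA28. SQSTM1 had a log2 fold change of 0.22 (SE 0.056, limma adjusted p = 0.0611), and it passed at a mean of at least 5 FPKM (0.0492), while under quantile normalization it was 0.12 (limma adjusted p = 0.227).

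A list of 77 further genes of the same pathways was read from the same fit, and 62 of them were tested. It held 13 tested partners of NRF2 and parts of its degradation machinery, 24 other targets, 19 other thioredoxin and glutathione genes and 6 other pentose phosphate and haem genes. In that list 2 genes rose, 0 fell and 60 did not pass (3.23% called, against 8.91% of all genes), with 50 estimates above 0 and 12 below and a median of 0.14. At an unadjusted p below 0.05 (limma), 17 were higher and 3 lower of the 62, against 28.0% of all genes, which is near the background. The 3 LV-SNORA28 values lay above the 3 LV-NC values in 18 of the 62 (29.0%), against 27.0% of all genes. They lay below in 3 (4.84%), NFE2L3, AKR1A1 and PGLS, against 8.16% of all genes. The count of calls was 1 without LV-NC 1 or LV-NC 3 and 0 without LV-SNORA28 2 or LV-SNORA28 3. Both calls were among the other targets. PTGR1, prostaglandin reductase 1, was at 8.02, 8.50 and 7.11 FPKM in LV-NC against 10.8, 11.8 and 11.9 FPKM in LV-SNORA28 (log2 fold change 0.49, SE 0.081, limma adjusted p = 0.0191). PIR, the iron-binding protein pirin, was at 5.59, 6.93 and 5.35 FPKM in LV-NC against 8.73, 8.85 and 8.41 FPKM in LV-SNORA28 (log2 fold change 0.48, SE 0.097, limma adjusted p = 0.0335). In both genes all LV-SNORA28 values were above all LV-NC values. RPE, ribulose-phosphate epimerase of the pentose phosphate pathway, was named after its values were seen, as the gene of this list that passed the threshold of the study (against 3.79% of all genes). It was at 4.15, 2.97 and 4.77 FPKM in LV-NC against 5.78, 11.4 and 8.45 FPKM in LV-SNORA28. No values overlapped and LV-SNORA28 2 was the highest library, with a ratio of means of 2.16 and a log2 fold change of 0.92 (SE 0.24, unadjusted p = 0.00732, limma adjusted p = 0.0635). TXNDC5, also named after its values were seen, had the largest estimate of this list, and it was below 0. It was at 47.5, 87.1 and 96.8 FPKM in LV-NC against 70.1, 5.58 and 38.9 FPKM in LV-SNORA28. The groups overlapped (log2 fold change -1.49, SE 0.84, limma adjusted p = 0.301).

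**Figure D4:**
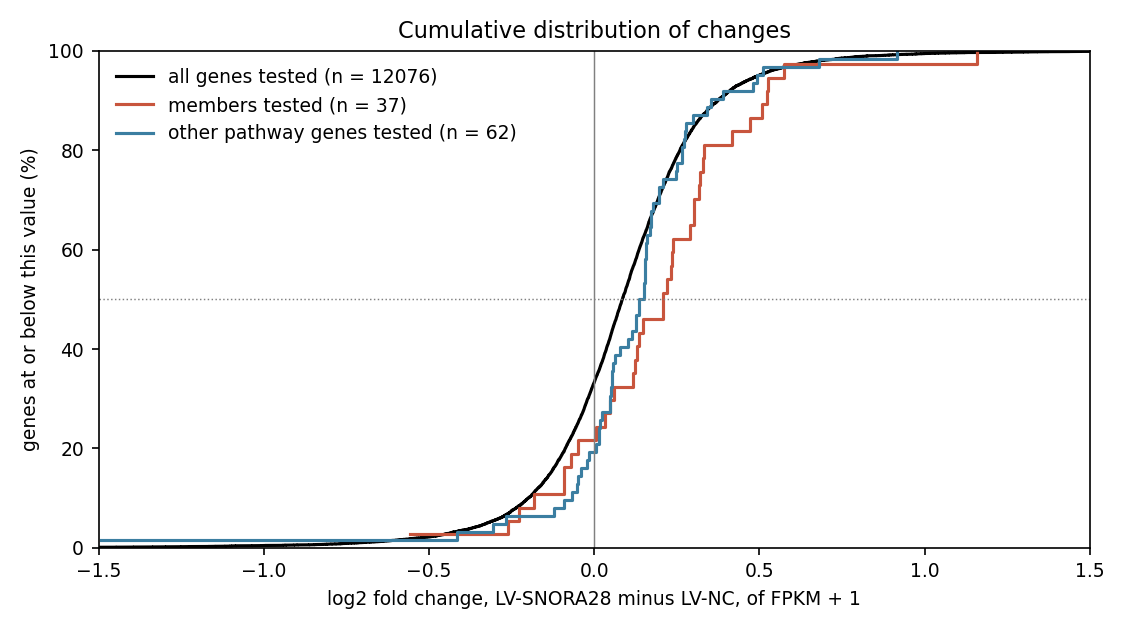
Cumulative share of genes (vertical axis, %) at or below each log2 fold change of FPKM + 1 (horizontal axis, LV-SNORA28 minus LV-NC, drawn from -1.5 to 1.5) for all 12076 genes tested, the 37 tested members and the 62 other tested pathway genes. The curves cross the 50% line at 0.085, 0.21 and 0.14, and the last step of the member curve is SRXN1 at 1.16.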

How the data were processed

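RNA sequencing of 6 HCT116 libraries (3 LV-NC, 3 LV-SNORA28, grouped by sample title) was analysed from FPKM values per Ensembl gene that the authors deposited, 1 file per library, with 2 decimals. The submitters' processing notes name cutadapt 1.9, HISAT2 2.2.1, StringTie 2.1.6, DESeq2, edgeR and hg38, with no role or order. Symbols and coordinates came from GENCODE release 44 on GRCh38. Counts and depth were not used here, so no counting interval was given, and precision is the spread between libraries.

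Values were transformed to log2(FPKM + 1), and genes whose mean reached 1 FPKM were fitted with limma 3.58.1 in R 4.3.3 (lmFit, eBayes with a trend, two-sided p, Benjamini-Hochberg adjustment). This fold change understates the change of low genes. The fit was tested on simulated data. Exact permutation of 3 against 3 libraries cannot go below p = 0.1 and was not used. The members and lists were chosen with earlier results of these data known. Named were all members by role, in full SRXN1, each called member and the member with the largest estimate per role, and each called gene of the other pathway list. Motifs were searched in RefSeq promoters (GRCh38.p14) in Python 3.11.15. Of 42 matched members, 5 below the filter were read from a fit without one. Alternatives were 2 other filters, a pseudocount of 0.1, quantile normalization, scaling to the nuclear sum, no trend, the replicate number as a block, each library left out and the study's threshold. The result of 1 marker gene is not reported here.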

Additional observations from a re-analysis of the deposited data

How the results depend on the processing

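SRXN1 kept its direction and its call in 13 of 13 alternative fits (log2 fold change 1.07 to 1.21, limma adjusted p 0.000719 to 0.0231), and the members' median kept its direction in each (0.13 to 0.22). Counts moved more. Without a filter, 397 of all genes, 2 members and 0 other pathway genes were called, where 32761 genes were tested. Under the study's threshold these counts were 458, 1 and 1. With a library left out, where fewer samples remain, they ran from 279 to 628, from 2 to 4 and from 0 to 2. Same-numbered libraries did not deviate together (correlations -0.044, 0.091 and 0.0098), so the numbers were not taken as a pairing, and the fit with the replicate number as a block called 510 genes, 3 members (SRXN1, PRDX1 and, lower, ABCC3) and 0 other pathway genes. Over single members other than SRXN1, 408 alternative values kept direction and side of the threshold, 31 lost and 8 gained a call, and 19 turned direction, all in members without a call. These were GSS (-0.042), GPX4 (-0.017) and BLVRB (-0.089) under quantile normalization and BLVRB (-0.020) on the nuclear sum. With a library left out, the ranges that crossed 0 were -0.042 to 0.83 for NFE2L2, -0.18 to 0.070 for KEAP1, -0.024 to 0.22 for GLRX, -0.017 to 0.062 for PRDX5, -0.046 to 0.13 for GSS, -0.28 to 0.055 for GSR, -0.0020 to 0.12 for GPX4, -0.024 to 0.031 for BLVRB and -0.37 to 0.088 for FTH1. Apart from the fewer samples or more genes tested, the cause was not tested. Depth is unknown, which limits what can be said of the genes below 1 FPKM.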
